A study of Mus musculus with 3 samples.

Results

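Adipocyte nuclei in which no *Ucp1* transcript was counted were compared with adipocyte nuclei rich in *Ucp1*, at matched sequencing depth. The data were single-nucleus RNA-seq of interscapular brown adipose tissue from wild-type male mice of 2, 12 and 24 months, with 1 library per age and no added treatment, and 10000 barcodes per library. The tissue came from 4 mice, and the sources used here do not say how these fell to the 3 libraries, so that age, animal and library cannot be told apart. The nuclei were chosen by the counts of *Ucp1* and of 8 genes of other cell types. A barcode was kept if it held 2000 to 4000 UMIs, the unique molecular identifiers that count captured RNA molecules, and fewer than 3 UMIs in sum over the endothelial genes *Flt1* and *Ptprb*, the fibroblast and progenitor genes *Pdgfra* and *Dcn*, the macrophage genes *Mrc1* and *F13a1*, and the mural cell genes *Abcc9* and *Trpc6*. Of 30000 barcodes, 11124 were kept, and 3242 of these had 0 *Ucp1* UMIs, with 2147, 995 and 100 in the 2-, 12- and 24-month libraries. The nuclei with 3 or more *Ucp1* UMIs numbered 3430, with 776, 1092 and 1562 at the 3 ages.

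UCP1 is the proton carrier of the inner mitochondrial membrane that lets brown adipocytes burn fuel as heat. Noradrenaline acts through beta-adrenergic receptors, the stimulatory G protein and cyclic AMP to induce *Ucp1*, together with *Dio2*, whose product is the type 2 deiodinase that converts thyroxine to its active form, and fatty acids released from lipid droplets both fuel and activate the protein. Brown adipocytes are known to differ from one another in *Ucp1* level within a single depot, and a nucleus holds only the transcripts that have not yet left it.

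The promoters of *Ucp1*, which chose the nuclei, and of *Dio2* and *Slc25a42*, the genes lower without *Ucp1* by the largest margins common to the 3 libraries, are shown for orientation. Each is the stretch of 250 bases before the RefSeq start of the gene in GRCm38.p6, read 5′ to 3′ on the gene's strand. Capitals mark a match to 1 of 4 motifs, namely TGACGTCA (cyclic AMP response element), TTGCGCAA (C/EBP), AGGTCA (a hexamer of nuclear receptor elements) and GGGCGG (GC box), searched on both strands.
*Ucp1*, chr8:83290098-83290347, plus strand: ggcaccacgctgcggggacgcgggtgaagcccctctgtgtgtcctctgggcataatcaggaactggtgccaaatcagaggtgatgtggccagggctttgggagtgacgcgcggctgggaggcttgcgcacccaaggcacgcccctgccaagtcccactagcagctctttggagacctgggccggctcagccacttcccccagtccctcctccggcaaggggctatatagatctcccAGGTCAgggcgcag
*Dio2*, chr12:90739039-90739288, minus strand: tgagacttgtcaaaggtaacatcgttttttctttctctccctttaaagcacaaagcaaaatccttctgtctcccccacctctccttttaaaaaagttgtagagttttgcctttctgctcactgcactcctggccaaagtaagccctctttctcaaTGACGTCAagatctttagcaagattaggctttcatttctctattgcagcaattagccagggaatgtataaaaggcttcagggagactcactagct
*Slc25a42*, chr8:70212282-70212531, minus strand: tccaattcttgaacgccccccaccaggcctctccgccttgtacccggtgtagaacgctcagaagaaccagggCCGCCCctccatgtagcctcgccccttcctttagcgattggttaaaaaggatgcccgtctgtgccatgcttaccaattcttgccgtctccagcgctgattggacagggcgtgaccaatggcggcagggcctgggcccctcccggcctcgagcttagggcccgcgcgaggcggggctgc
In these windows *Ucp1* held AGGTCA, *Dio2* held TGACGTCA, and *Slc25a42* held GGGCGG on the opposite strand. Over 27025 promoters of this length, TGACGTCA was present in 1.77%, TTGCGCAA in 0.185%, AGGTCA in 15.8% and GGGCGG in 35.4%. The *Dio2* window ends before the gene start given by the GENCODE annotation used here for gene positions, which places the gene at chr12 90724552 to 90738438.

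At matched depth, nuclei without *Ucp1* made up 41.5% of the kept nuclei at 2 months (2147 of 5172, exact binomial 95% interval 40.2 to 42.9), 26.1% at 12 months (995 of 3815, 24.7 to 27.5) and 4.68% at 24 months (100 of 2137, 3.82 to 5.66). These intervals cover counting error only, and with 1 library per age the order of the ages has no replicate check. Thinning each nucleus to 2000 UMIs gave 50.1%, 36.7% and 9.59%, in the same order. The distribution had no gap between nuclei with and without *Ucp1*. At 2 months 1448 nuclei held 1 *Ucp1* UMI and 801 held 2, at 12 months 988 and 740, and at 24 months 172 and 303. The mean was 1.20, 1.86 and 4.47 *Ucp1* UMIs per nucleus, with a variance 1.89, 1.81 and 1.80 times the mean. At means this low, sampling alone can leave a nucleus that holds *Ucp1* transcripts without a counted UMI, more often where the mean is lower. Thinning to 2000 UMIs removed the only *Ucp1* UMI from 23.8%, 29.5% and 26.7% of the nuclei with 1. The shares, and comparisons that rest on them, are thus not like for like between the ages. How many nuclei without a counted UMI lacked the transcript was not tested.

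**Figure D1:**
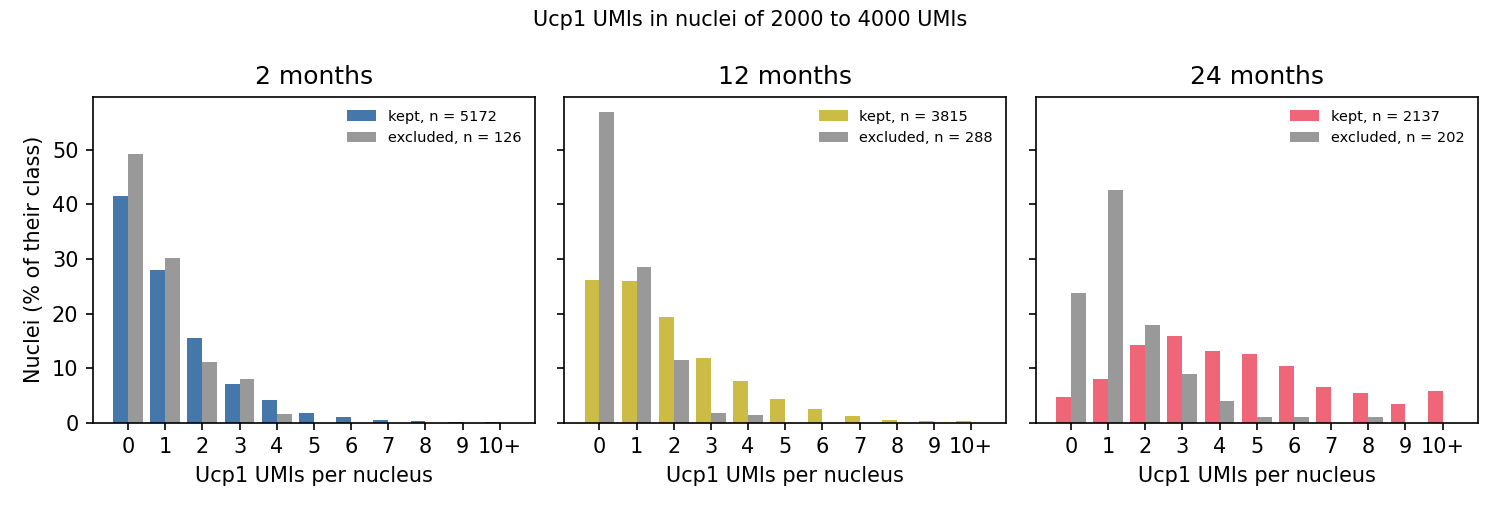
Share of nuclei of 2000 to 4000 UMIs (percent of their class, y axis) by the number of Ucp1 UMIs per nucleus (x axis), 1 panel per library, with coloured bars for kept nuclei and grey bars for those removed by the exclusion genes. The kept share with 0 UMIs was 41.5% at 2 months, 26.1% at 12 months and 4.68% at 24 months, and no gap separates it from the shares with 1 and 2 UMIs.

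The barcodes that the exclusion genes removed are given beside these, since cells of those types should not make *Ucp1*. They numbered 126, 288 and 202 at 2, 12 and 24 months. They also carried adipocyte transcripts, as 3, 43 and 49 of them had fewer than 10 UMIs over 12 adipocyte genes, so that they are not a background free of adipocyte RNA. Among them 49.2% (40.2 to 58.3), 56.9% (51.0 to 62.7) and 23.8% (18.1 to 30.2) held 0 *Ucp1* UMIs. Their *Ucp1* level, in CPM (UMIs of a gene scaled to a common total), was 300, 230 and 498, against 440, 635 and 1495 in the kept nuclei. *Ucp1* UMIs thus also occurred in barcodes with transcripts of other cell types. The share with 0 UMIs in these exceeded that of the kept nuclei beyond counting error at 12 and 24 months but not at 2 months. Barcodes with 10 or more exclusion-gene UMIs and fewer than 10 adipocyte marker UMIs were few, at 1, 12 and 18. Of these 1, 7 and 6 held 0 *Ucp1* UMIs, which is 58.3% at 12 months (27.7 to 84.8) and 33.3% at 24 months (13.3 to 59.0), and their *Ucp1* level was 0, 275 and 432 CPM. Barcodes with 3 or more *Ucp1* UMIs made up 9.52%, 3.13% and 15.8% of the excluded and 15%, 28.6% and 73.1% of the kept ones. Median depths were 2596.5, 2589.5 and 2716 UMIs in these barcodes and 2623.5, 2903 and 2985 in the kept nuclei. At the threshold, nuclei with 2 exclusion-gene UMIs had 0 *Ucp1* UMIs in 48.5%, 37.3% and 12.8% of cases and those with 3 in 33.3%, 63.4% and 14.3%. Median adipocyte marker UMIs were 40.5, 27 and 33 on the inner side of this step and 30.5, 17 and 11 on the outer side.

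The adipocyte label held for most nuclei without *Ucp1*. Their median sum over 12 adipocyte genes, among them *Adipoq*, *Pparg*, *Plin1* and *Lipe*, was 43, 45 and 45 UMIs at 2, 12 and 24 months, against 52, 51 and 52 in nuclei with 3 or more *Ucp1* UMIs, and 22.5, 15 and 12 in the excluded barcodes. All 12 genes were detected in every group. Fewer than 10 such UMIs were found in 1, 12 and 7 of the nuclei without *Ucp1*. Depth was not fully matched inside the window, as the nuclei without *Ucp1* had medians of 2567, 2758 and 2452 UMIs and those with *Ucp1* had 2845, 3116.5 and 3093.5. Mitochondrial transcripts made up 0.027, 0.232 and 0.019% of UMIs without *Ucp1* and 0.030, 0.237 and 0.022% with it.

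Fibroblast and progenitor, skeletal muscle and macrophage markers were higher in nuclei without *Ucp1* in all 3 libraries, as were the sparse lymphocyte markers. Endothelial, neural, mural cell and mesothelial markers were not. Fibroblast and progenitor markers reached 189, 267 and 1482 CPM without *Ucp1* against 108, 60.3 and 122 CPM with it, and of these 11 markers only *Lum* at 2 months and *Pi16* at 24 months were at 0 without *Ucp1*. Skeletal muscle markers were at 126, 187 and 1169 CPM against 81.6, 52.0 and 55.4 CPM. At 24 months 3 of these 10 markers, *Myh4*, *Myh1* and *Ckm*, were at 0 without *Ucp1*, and the others were detected. The dystrophin gene *Dmd* gave 46 of the 302 muscle list UMIs in these nuclei, so most came from other members of the list. Of these nuclei 2 held 10 or more UMIs of this list. At 2 months, in contrast, *Dmd* gave 701 of the 725 muscle list UMIs without *Ucp1* and 172 of the 183 with it. *Myh4*, *Myh1*, *Ckm*, *Acta1* and *Tnnt3* were at 0 without *Ucp1* in that library, so its muscle list level is nearly that of *Dmd* alone. Macrophage markers were at 106, 168 and 248 CPM against 87.0, 85.9 and 101 CPM, with *Adgre1*, *Csf1r*, *Cd163*, *Lyz2*, *C1qa* and *Cd68* at 0 in the 24-month nuclei without *Ucp1*. Endothelial markers stood at 161, 343 and 275 CPM against 165, 311 and 288 CPM. Mural cell markers were at 92.0, 90.5 and 217 CPM against 84.7, 92.4 and 106, and neural markers at 158, 336 and 240 against 162, 197 and 200. Lymphocyte markers were at 6.94, 22.2 and 15.5 CPM against 4.91, 5.65 and 13.8, with 4 UMIs at 24 months without *Ucp1*. Mesothelial markers were at 8.47 CPM or less. In single nuclei, 10 or more UMIs over these 8 lists were found in 42 (1.96%), 64 (6.43%) and 18 (18.0%) of the nuclei without *Ucp1*, and in 5 (0.644%), 22 (2.01%) and 39 (2.50%) of those with it. These are called other-class nuclei below, and results are given with and without them.

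UMIs were summed over the nuclei of each group in each library, *Ucp1* was left out, and the CPM of the sum without *Ucp1* was divided by that with it. Because the *Ucp1* count chose the nuclei, these ratios are a description and carry no test. Of 5331 genes with a mean of at least 20 CPM in each library, 854 (16.0%) were higher without *Ucp1* in all 3 libraries and 839 (15.7%) were lower, at any size. A ratio of 1.5 or more in all 3 libraries was met by 12 genes (0.225%), and no gene (0%) was lower by that much in all 3. The median log2 ratio over all compared genes was 0.01, 0.00 and -0.02. Scaling by median-of-ratios factors gave 499 genes higher and 1182 lower, so that higher genes made up 29.7% in place of 50.4%, and the shift was -0.17 on the log2 scale at 24 months. Without the other-class nuclei, 778 of 5279 genes (14.7%) were higher in all 3 libraries and 715 (13.5%) were lower, and 1 gene, *Map1lc3b*, was higher by 1.5 times or more.

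The 12 genes that were higher were *Lama2*, *Auts2*, *Tshz2*, *Plxdc2*, *Lhfp*, *Bmper*, *Sdc2*, *Dmd*, *Adamts12*, *Fbxl7*, *Slit3* and *Ccdc80*. Several encode extracellular or cell-surface proteins. *Lama2*, the laminin alpha chain of the basement membrane around muscle and stromal cells, was at 31.9, 50.8 and 294 CPM without *Ucp1* at 2, 12 and 24 months and at 11.6, 5.95 and 17.6 CPM with it. At 24 months 76 *Lama2* UMIs lay in 15 of 100 nuclei. *Slit3*, a secreted ligand of ROBO receptors, was at 54.1, 175 and 840 CPM without and 35.3, 56.2 and 152 CPM with *Ucp1*. *Tshz2*, a zinc finger transcription factor, was at 49.4, 156 and 588 CPM without and 26.4, 80.9 and 240 CPM with. The 24-month library had the largest ratio for all of the 12 genes, and in that library *Auts2*, a chromatin-associated protein, was at 414 against 22.6 CPM.

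Without the other-class nuclei none of the 12 genes reached 1.5 in all 3 libraries, and 4 no longer kept their direction. The log2 ratio of *Lama2* was -0.03, 0.05 and -0.37 without these nuclei, where it had been 1.46, 3.09 and 4.06. *Lama2* is a member of the fibroblast and progenitor list, so its own UMIs counted towards the removal of these nuclei. Its fall is therefore not independent of that removal. *Plxdc2*, a membrane protein, went from 0.86, 2.85 and 3.30 to -0.27, 1.16 and 1.70. *Bmper*, a secreted regulator of BMP signalling, went from 0.71, 1.03 and 2.13 to 0.60, -0.11 and 1.04, and *Dmd*, the dystrophin gene and a member of the muscle list, from 0.66, 0.92 and 1.91 to 0.49, -0.15 and 0.62. Demanding 0 UMIs over the 8 exclusion genes left no gene above 1.5 in all 3 libraries. In contrast, *Ccdc80*, a secreted matrix protein made by white adipocytes as well as stromal cells, kept nearly the same ratios, with 0.59, 1.82 and 2.30 over all nuclei and 0.58, 1.80 and 2.32 without the other-class nuclei. Its level was 66.1, 33.6 and 143 CPM without *Ucp1* and 43.8, 9.52 and 29.1 CPM with it, and the 37 UMIs at 24 months came from 23 nuclei. *Auts2* (0.57, 1.26 and 4.03), *Tshz2* (0.60, 0.46 and 1.10), *Adamts12*, a secreted protease (0.57, 0.18 and 0.94), *Sdc2*, a cell-surface proteoglycan (0.58, 0.22 and 0.54), *Lhfp*, a membrane protein (0.62, 0.35 and 0.21), *Fbxl7*, an F-box protein (0.14, 0.17 and 1.66), and *Slit3* (0.14, 0.57 and 1.83) also stayed above 0 in all 3 libraries.

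**Figure D2:**
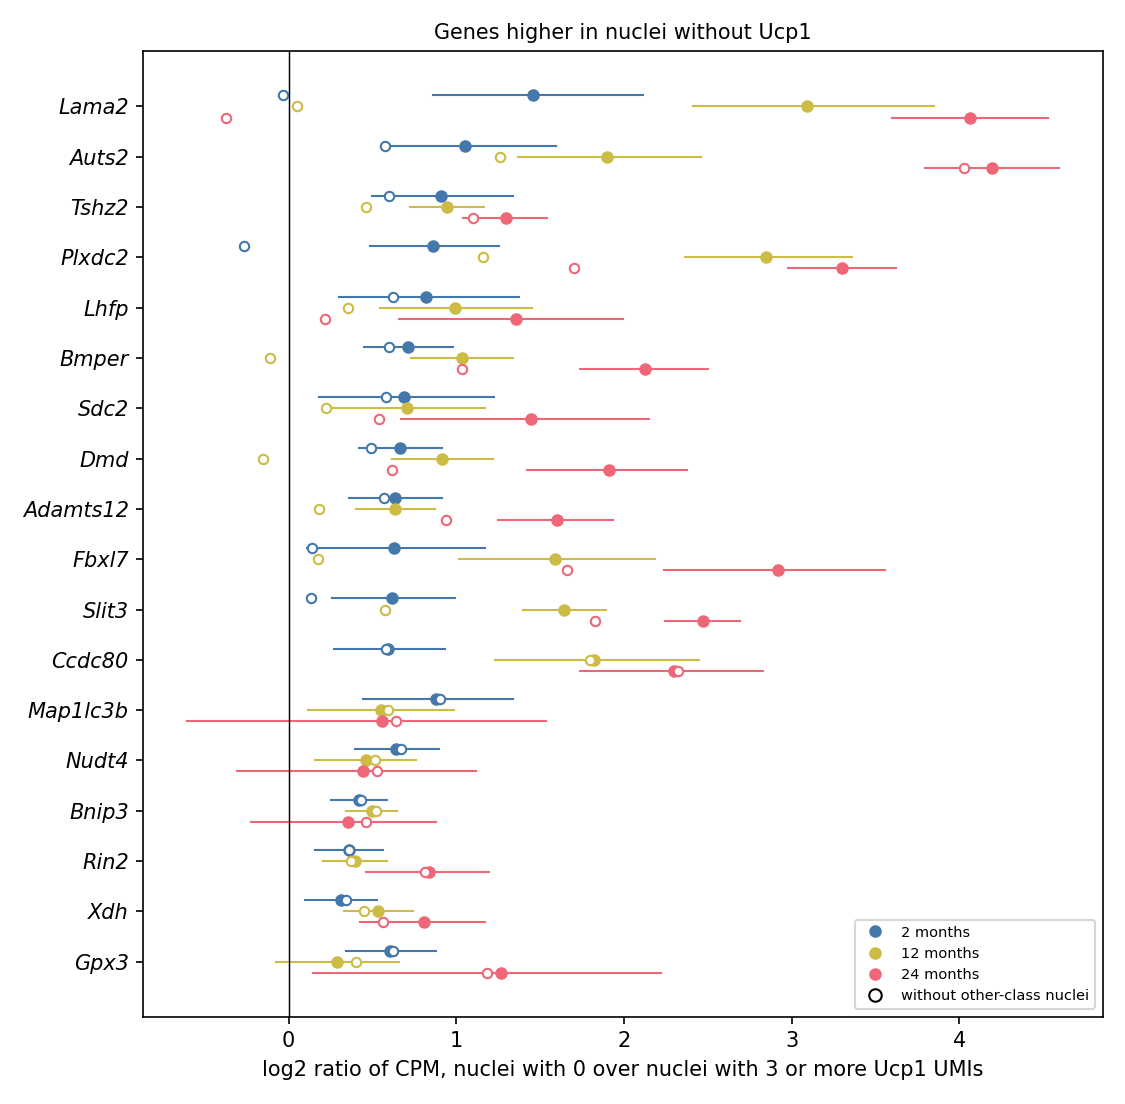
Log2 ratio of CPM in nuclei with 0 over nuclei with 3 or more Ucp1 UMIs (x axis) for genes higher without Ucp1, with filled points for all kept nuclei, lines for 95% counting intervals and open points for the ratio without other-class nuclei, coloured by library. The open points of Lama2 lie at -0.03, 0.05 and -0.37 and its filled points at 1.46, 3.09 and 4.06, while those of Ccdc80 nearly coincide. Lama2 and Dmd are among the genes whose UMIs define the other-class nuclei.

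A further set of genes was higher without *Ucp1* in all 3 libraries whether or not the other-class nuclei were included, with smaller ratios. These were ranked by the smallest of the 3 log2 ratios after the values were seen. *Map1lc3b*, the LC3B protein of autophagosome membranes, was at 42.7, 36.1 and 34.8 CPM without *Ucp1* and 23.2, 24.7 and 23.6 CPM with it. *Bnip3*, a mitophagy receptor of the outer mitochondrial membrane, was at 220, 273 and 120 CPM without and 165, 194 and 94.0 CPM with, a mean log2 ratio of 0.42 ± 0.07 (SD, n = 3 libraries). *Nudt4*, a hydrolase of diphosphoinositol polyphosphates, was at 114, 71.6 and 73.5 against 72.8, 52.1 and 54.0 CPM. At 24 months the counting intervals of the ratio reached below 1 for each of these 3 genes, for *Map1lc3b* from 0.657 to 2.90. *Xdh*, xanthine dehydrogenase, was at 128, 152 and 259 CPM without and 104, 105 and 148 CPM with *Ucp1*, and *Rin2*, a guanine nucleotide exchange factor for RAB5, at 151, 169 and 267 against 118, 129 and 149 CPM. *Gpx3*, the secreted glutathione peroxidase, was at 97.8, 45.8 and 38.7 against 64.3, 37.5 and 16.1 CPM. For *Xdh* and *Rin2* the counting intervals lay above 1 in all 3 libraries.

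The lower genes had smaller ratios, and among them were genes of thermogenic signalling and fuel use. *Dio2* was at 15.8, 116 and 151 CPM without *Ucp1* and at 40.2, 167 and 247 CPM with it, at 2, 12 and 24 months. The ratio was 0.393 (counting interval 0.290 to 0.532), 0.691 (0.601 to 0.794) and 0.612 (0.433 to 0.842). *Slc25a42*, a mitochondrial carrier of coenzyme A, was at 348, 585 and 515 CPM without and 501, 838 and 823 CPM with *Ucp1*, a mean log2 ratio of -0.57 ± 0.09 (SD, n = 3 libraries). *Gnas*, which encodes the stimulatory G protein alpha subunit between the beta-adrenergic receptor and adenylyl cyclase, was at 1429, 2006 and 1993 CPM without and 2087, 2630 and 3181 CPM with. All 3 were lower in every library, and their log2 ratios without other-class nuclei lay between -1.39 and -0.48 for *Dio2*, -0.52 and -0.47 for *Slc25a42*, and -0.54 and -0.34 for *Gnas*.

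The following genes, which had counting intervals below 1 in all 3 libraries, were chosen after their values were seen. *Gpd1*, cytosolic glycerol-3-phosphate dehydrogenase, was at 352, 843 and 1099 CPM without *Ucp1* and 509, 1023 and 1580 CPM with it. *Pck1*, which supplies glycerol for triglyceride synthesis in adipocytes, was at 743, 588 and 1115 against 1123, 836 and 1323 CPM. *Plin5*, a lipid droplet protein that tethers mitochondria, was at 74.8, 121 and 92.9 against 99.1, 148 and 162 CPM, and *Tfrc*, the transferrin receptor of iron uptake, at 117, 169 and 108 against 177, 205 and 197 CPM. *Ucp3*, the homologue of *Ucp1*, was at 149, 148 and 194 against 201, 183 and 270 CPM. *Hmgcs1*, an enzyme of cholesterol synthesis, was at 114, 125 and 139 against 161, 164 and 203 CPM. Ratios with a counting interval below 1 in all 3 libraries were found for 50 genes (0.938% of those compared), and with one above 1 in all 3 for 28 genes (0.525%). All 50 lower genes stayed lower in all 3 libraries without the other-class nuclei. Of the 28 higher genes, 19 stayed higher in all 3, and 14 of these also passed the level filter without those nuclei.

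**Figure D3:**
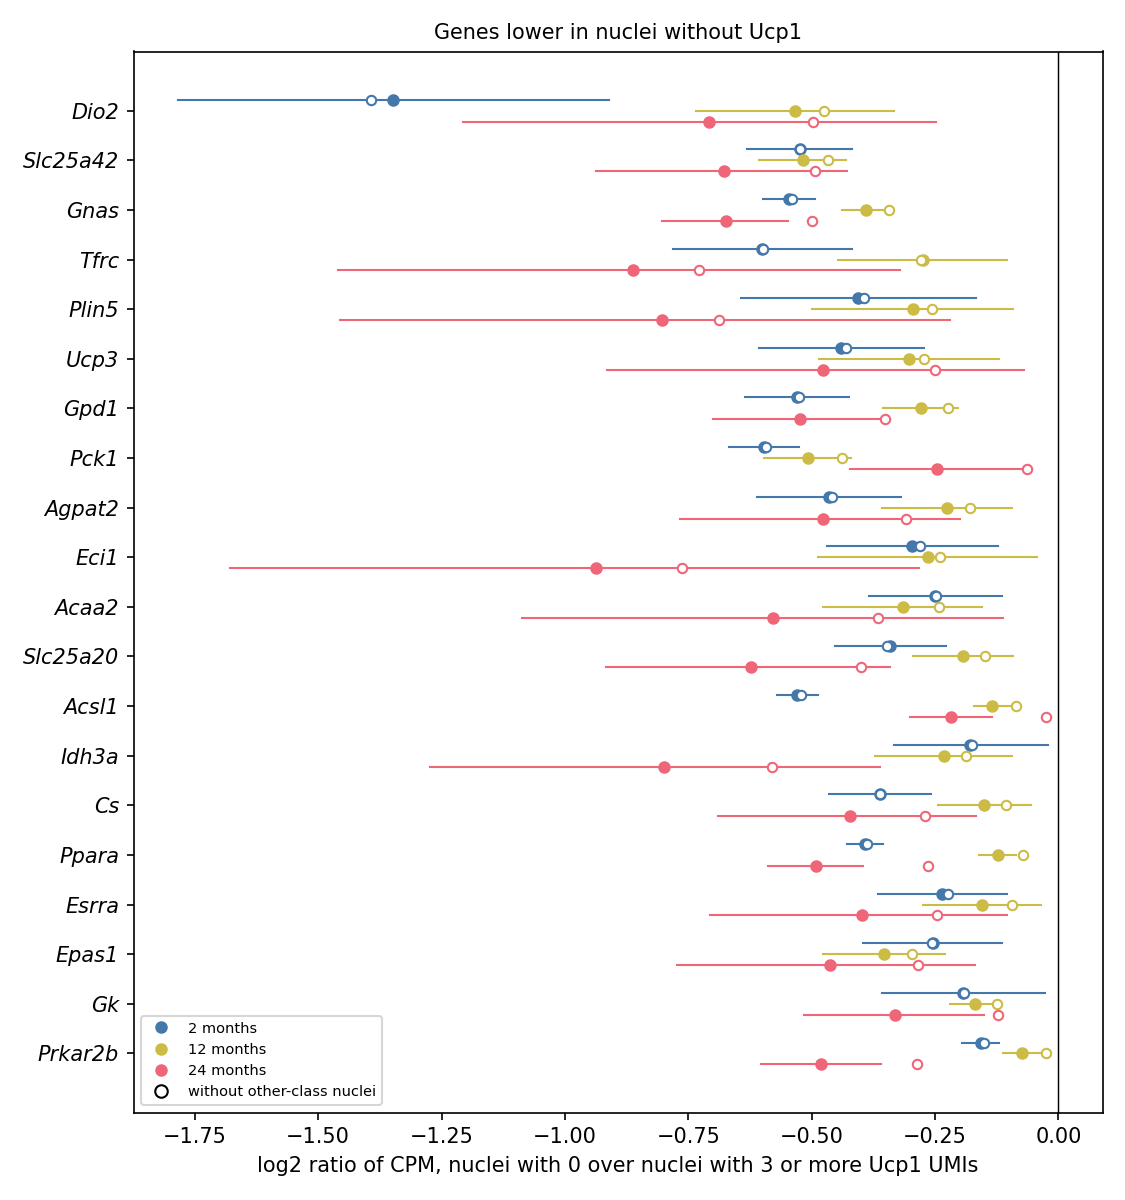
Log2 ratio of CPM in nuclei with 0 over nuclei with 3 or more Ucp1 UMIs (x axis) for genes lower without Ucp1, with filled points for all kept nuclei, lines for 95% counting intervals and open points for the ratio without other-class nuclei, coloured by library. All points of the genes shown lie below 0, from -1.39 for Dio2 at 2 months to values near 0 such as -0.03 for Acsl1 at 24 months, both without other-class nuclei.

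Among the other leading lower genes, values rested on few UMIs at 24 months. *Trim67*, a ubiquitin ligase family member, was at 59.3, 58.0 and 23.2 CPM without *Ucp1* and 82.6, 80.0 and 54.8 CPM with it, with 6 UMIs at 24 months without *Ucp1*. *Slc25a48*, a mitochondrial carrier, was at 26.4, 21.1 and 23.2 against 35.7, 28.9 and 45.4 CPM, and *Aldh4a1*, a mitochondrial enzyme of proline breakdown, at 47.2, 33.3 and 27.1 against 62.5, 46.4 and 45.6 CPM. For *Slc25a48* the counting interval reached above 1 at 12 and 24 months, and for *Aldh4a1* at 24 months. *Elmod2*, a neighbour of *Ucp1* on chromosome 8 (83312632 to 83332486 in mm10, minus strand), was at 53.1, 40.4 and 31.0 CPM without and 79.0, 49.4 and 37.9 CPM with *Ucp1*. Only its 2-month ratio had a counting interval below 1 (0.556 to 0.813). *Tbc1d9*, the neighbour on the other side (83165352 to 83272934, plus strand), fell under the level filter, with 26, 49 and 5 UMIs without and 7, 38 and 49 UMIs with *Ucp1*. Its log2 ratios were 0.53, 0.63 and 0.92, and the counting interval included 1 in each library.

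By function, the thermogenesis and adrenergic list had 26 of 36 members among the compared genes. Of these, 15 were lower in all 3 libraries (15.7% of all compared genes were) and 2 were higher (16.0%), *Pde3b* and the receptor gene *Adrb3*. Without the other-class nuclei 10 were lower (13.5% of all compared genes were) and 2 higher (14.7%). The median log2 ratio was -0.16, -0.08 and -0.36, beside 0.01, 0.00 and -0.02 for all compared genes. *Prdm16*, the brown fat transcriptional regulator, was at 399, 845 and 863 CPM without and 621, 867 and 1197 CPM with *Ucp1*, so that the 12-month values differed little. *Adcy3*, an adenylyl cyclase, was at 140, 493 and 325 against 208, 523 and 438 CPM. *Ppara*, the fatty acid receptor, was at 2988, 3613 and 3503 against 3921, 3934 and 4927 CPM, and the nuclear receptor gene *Esrra* at 269, 359 and 375 against 316, 399 and 495 CPM. Not all classic brown fat genes followed *Ucp1*. *Ppargc1a*, the coactivator of mitochondrial biogenesis, was at 360, 1543 and 844 against 372, 1321 and 1025 CPM, and *Cidea*, a lipid droplet protein, at 967, 1323 and 701 against 1158, 1201 and 967 CPM. *Adrb3*, the main adrenergic receptor of mouse adipocytes, was at 188, 299 and 375 against 182, 282 and 265 CPM.

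Compared genes of fatty acid oxidation numbered 22, with medians of -0.19, -0.08 and -0.27. In all 3 libraries 0 were higher (16.0% of all compared genes were) and 11 were lower (15.7%). They included *Slc25a20*, the carnitine-acylcarnitine carrier (341, 492 and 406 against 432, 562 and 626 CPM), *Eci1*, an isomerase for unsaturated fatty acids (147, 103 and 73.5 against 181, 124 and 141 CPM), and *Acaa2*, a mitochondrial thiolase (246, 187 and 147 against 293, 233 and 220 CPM). Without the other-class nuclei 8 of the 22 were lower in all 3, beside 13.5% of all compared genes. Of 36 compared nuclear genes of oxidative phosphorylation, 13 were lower and 0 higher, beside the same 15.7% and 16.0%. Without the other-class nuclei 7 of the 36 were lower and 1 higher, beside 13.5% and 14.7% of all compared genes. The medians of the 36 genes, 0.04, -0.13 and -0.34, differed in sign between libraries. Of 4 compared mitochondrial genome transcripts, 1 (*mt-Co1*) was lower in all 3.

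The counts of the next lists stand beside 16.0% higher and 15.7% lower over all compared genes, or 14.7% and 13.5% without the other-class nuclei. Triglyceride storage and lipolysis genes were lower in 6 of 23 and higher in 0, but without those nuclei 3 were lower and 4 higher. Glycolysis and glucose uptake genes were lower in 6 of 18 and higher in 0, with 3 lower and 1 higher without those nuclei. Branched-chain amino acid breakdown genes were lower in 6 of 18 and higher in 0, with 5 lower and 1 higher without them. Adipocyte transcription factors were lower in 8 of 23 and higher in 0, with 3 lower and 1 higher without them. *Agpat2*, an enzyme of triglyceride synthesis, was at 192, 293 and 418 against 265, 342 and 582 CPM, and *Ebf3*, a transcription factor of the early B-cell factor family, at 504, 471 and 732 against 563, 644 and 1017 CPM. *Pparg*, the master regulator of adipocytes, was at 3927, 4631 and 3704 CPM without and 3570, 4665 and 4109 CPM with *Ucp1*, and *Adipoq* was at 162, 69.4 and 89.0 against 170, 68.7 and 78.9 CPM. Of 16 compared lipogenesis genes, 1 was higher and 0 lower in all 3 libraries, with 0 in either direction without those nuclei, and *Fasn*, fatty acid synthase, was at 510, 650 and 1010 against 565, 465 and 1309 CPM. Insulin signalling genes were split, with 4 of 17 higher and 5 lower, or 2 and 2 without the other-class nuclei, and clock genes had 2 of 13 higher and 2 lower, or 3 and 2.

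The stress and immune lists had few compared members, to be read against the same shares of all compared genes. Of 8 integrated stress response genes, 3 were higher and 0 lower, or 3 and 1 without the other-class nuclei. Of 5 senescence and p53 genes 1 was higher and 0 lower, and of 6 apoptosis and necroptosis genes 2 were higher and 1 lower, with the same counts without those nuclei. *Ripk1*, a kinase of cell death signalling, was at 45.1, 48.3 and 54.2 against 34.8, 33.0 and 32.6 CPM. Of 6 compared interferon and antigen presentation genes, 3 were higher and 1 lower, and of the 4 that passed the level filter without the other-class nuclei 1 was higher and 0 lower. *H2-K1*, a class I histocompatibility heavy chain, was at 83.4, 62.6 and 77.4 against 74.1, 40.8 and 43.3 CPM, and *B2m*, its light chain, at 25.2, 24.0 and 54.2 against 21.0, 19.6 and 13.4 CPM. Of 10 compared extracellular matrix genes 3 were higher, but of the 8 compared without the other-class nuclei 0 were higher and 1 was lower. The fibroblast and macrophage marker levels given above moved with these lists, and their part was not tested. Of 12 ferroptosis and redox genes 1 was higher and 5 lower, or 2 and 4 without those nuclei, and of 3 immediate early genes 2 were lower, or 2 lower and 1 higher.

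Genes of pyroptosis, a lytic form of cell death driven by inflammasomes, were too sparse for most comparisons. Of 18 listed, 2 passed the level filter, *Nek7* and *Txnip*, and neither went the same way in all 3 libraries. *Casp1* had 1, 2 and 1 UMIs without *Ucp1* and 0, 1 and 3 with it. *Il18* had 4, 2 and 2 against 0, 3 and 7 UMIs, and *Gsdmd*, the pore-forming effector, had 1, 8 and 3 against 0, 2 and 1 UMIs. *Nlrp1b*, an inflammasome sensor, had 4, 13 and 5 against 1, 0 and 3 UMIs, but the 5 UMIs at 24 months came from 1 nucleus and the 13 at 12 months from 5 nuclei. With so few UMIs in so few nuclei, no direction is given for these genes. *Stx4a*, which encodes the plasma membrane fusion protein syntaxin 4, was at 28.8, 50.8 and 73.5 CPM without and 26.8, 37.2 and 59.4 CPM with *Ucp1*. Its counting interval lay above 1 at 12 months (1.07 to 1.75) and included 1 at 2 and 24 months. Of 16 compared vesicle fusion genes 3 were higher and 3 lower, beside 16.0% and 15.7% of all compared genes. Without the other-class nuclei 2 were higher and 1 lower, beside 14.7% and 13.5%.

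**Figure D4:**
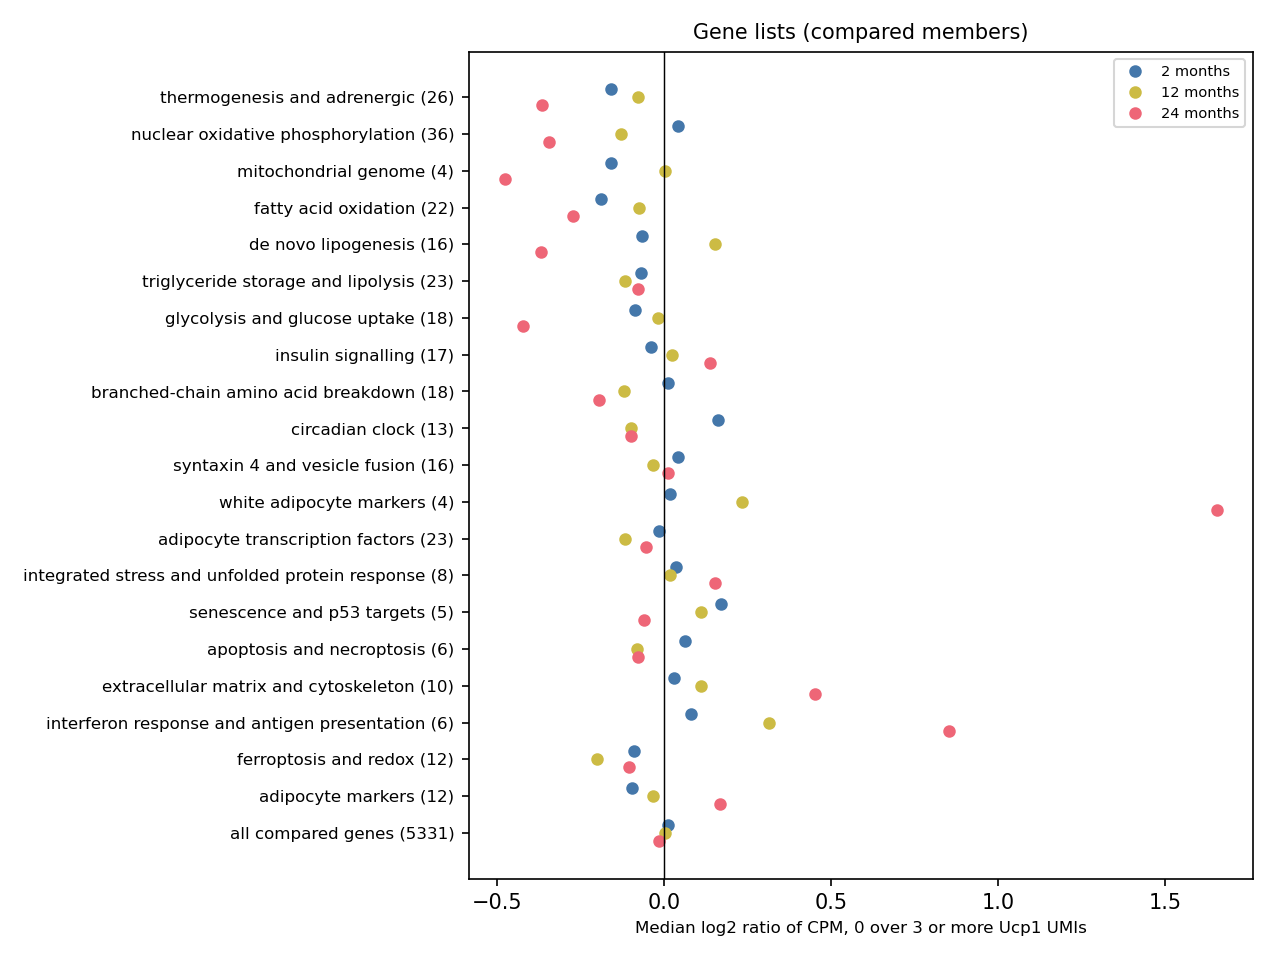
Median log2 ratio of CPM in nuclei with 0 over nuclei with 3 or more Ucp1 UMIs, per gene list (number of compared members in brackets) and library. At 2, 12 and 24 months the thermogenesis list lay at -0.16, -0.08 and -0.36, beside 0.01, 0.00 and -0.02 for all compared genes. The white adipocyte list of 4 genes lay at 0.02, 0.23 and 1.66.

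Nuclei of 1000 to 1999 UMIs, which the choice did not use, gave the only test. They came from the same libraries, and 3 pairs of sums entered edgeR's quasi-likelihood test with library as a block and Benjamini-Hochberg adjustment over 5794 genes. The groups held 1565, 515 and 161 nuclei without *Ucp1* and 180, 149 and 299 with it. Of the genes tested, 123 (2.12%) rose without *Ucp1* and 9 (0.155%) fell. All 12 genes named above as higher were tested, and 9 rose. *Slit3* had a log2 ratio of 2.12 ± 0.19 (SE, adjusted p = 1.77e-10), *Lama2* 2.28 ± 0.25 (adjusted p = 2.18e-08) and *Tshz2* 1.10 ± 0.18 (adjusted p = 4.76e-05). *Sdc2*, *Dmd* and *Ccdc80* did not pass, with adjusted p = 0.292, 0.337 and 0.753 from edgeR. Without the other-class nuclei 9 genes rose and 2 fell. *Slit3* was among the 9, with a log2 ratio of 1.43 (adjusted p = 0.000145 in edgeR), whereas *Auts2* (1.43, adjusted p = 0.124) and *Tshz2* (0.64, adjusted p = 0.319) did not pass, and *Lama2* was too low to be tested. Of the further set with smaller ratios, *Map1lc3b* (0.05 ± 0.37, adjusted p = 0.984), *Bnip3* (0.36 ± 0.19, adjusted p = 0.545), *Nudt4* (0.46 ± 0.26, adjusted p = 0.575), *Rin2* (0.46 ± 0.18, adjusted p = 0.288) and *Gpx3* (-0.08 ± 0.24, adjusted p = 0.957) did not pass in edgeR, and *Xdh* did. *Xdh* rose by 0.84 ± 0.18 on the log2 scale (SE, edgeR adjusted p = 0.00293), with 0.59 (adjusted p = 0.338) without the other-class nuclei.

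The 9 genes that fell in these held-out nuclei were *Pck1*, *Gpd1*, *Noct*, *Gtf2ird1*, *Ech1*, *Uqcrc1*, *Atp5e*, *Atp5j2* and *mt-Co1*. *Pck1* fell by 0.67 ± 0.14 on the log2 scale (SE, edgeR adjusted p = 0.00202), and it fell by 0.55 (adjusted p = 0.00853) without the other-class nuclei. *Gpd1* fell by 0.59 ± 0.15 (SE, edgeR adjusted p = 0.0130), and its value without those nuclei was -0.45 (adjusted p = 0.124). *Uqcrc1*, a subunit of respiratory complex III, had -0.75 ± 0.20 (SE, edgeR adjusted p = 0.0318), although in the deeper window it was higher at 2 months (100 against 87.5 CPM) and lower at 12 and 24 months. *Gnas* had -0.50 ± 0.15 (adjusted p = 0.0577), *Dio2* -0.69 ± 0.23 (adjusted p = 0.127) and *Slc25a42* -0.36 ± 0.14 (adjusted p = 0.277), so that none of these 3 passed in edgeR. Of the 50 genes whose counting intervals lay below 1 in all 3 libraries, 2 passed here and 25 had an unadjusted p under 0.05, as did 595 of all 5794 genes. By list, 0 of 27 tested thermogenesis and adrenergic genes and 0 of 22 fatty acid oxidation genes passed in either direction. Of 37 tested nuclear oxidative phosphorylation genes 1 fell and 0 rose, beside 0.155% and 2.12% of all genes tested.

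Deeper nuclei of 4001 to 8000 UMIs could be compared at 2 months (374 without and 503 with *Ucp1*) and 12 months (363 and 1986), and the 18 nuclei without *Ucp1* at 24 months were too few. *Dio2* had log2 ratios of -1.31 and -0.71 there, *Gnas* -0.71 and -0.48, and *Slc25a42* -0.69 and -0.44. *Bnip3* had 0.46 and 0.57, *Map1lc3b* 0.91 and 0.52, and *Ccdc80* 0.79 and 1.69. *Lama2* had 1.05 and -0.25, *Lhfp* -0.02 and -0.30, and *Stx4a* -0.57 and -0.12, so that these genes did not keep one direction. In the 24-month barcodes removed by the exclusion genes, *Gnas* was at 719 CPM without and 806 CPM with *Ucp1*, and *Lama2* at 1284 and 1005 CPM. *Dio2* was at 101 and 11.0 CPM there, from 13 UMIs and 1 UMI.

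Levels of 5 genes are given by the number of *Ucp1* UMIs. From 0 to 1, 2, 3 to 5 and 6 or more UMIs, *Gnas* at 2 months was at 1429, 1634, 1822, 2078 and 2141 CPM, and at 24 months at 1993, 2443, 2820, 3064 and 3320 CPM. *Slc25a42* at 12 months was at 585, 667, 719, 833 and 860 CPM. *Dio2* at 2 months was at 15.8, 17.1, 26.8, 38.5 and 50.2 CPM, and *Pck1* at 2 months at 743, 847, 948, 1096 and 1289 CPM. *Bnip3* ran the other way, at 220, 218, 201, 167 and 150 CPM at 2 months, but at 24 months it stood at 120, 127, 131, 92.2 and 96.1 CPM. Nuclei with 1 or 2 *Ucp1* UMIs, which entered neither group, lay between the groups in all 3 libraries for *Gnas*, *Slc25a42*, *Dio2* and *Pck1*. For *Bnip3* they did so at 2 and 12 months but not at 24 months, where both were above either group.

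**Figure D5:**
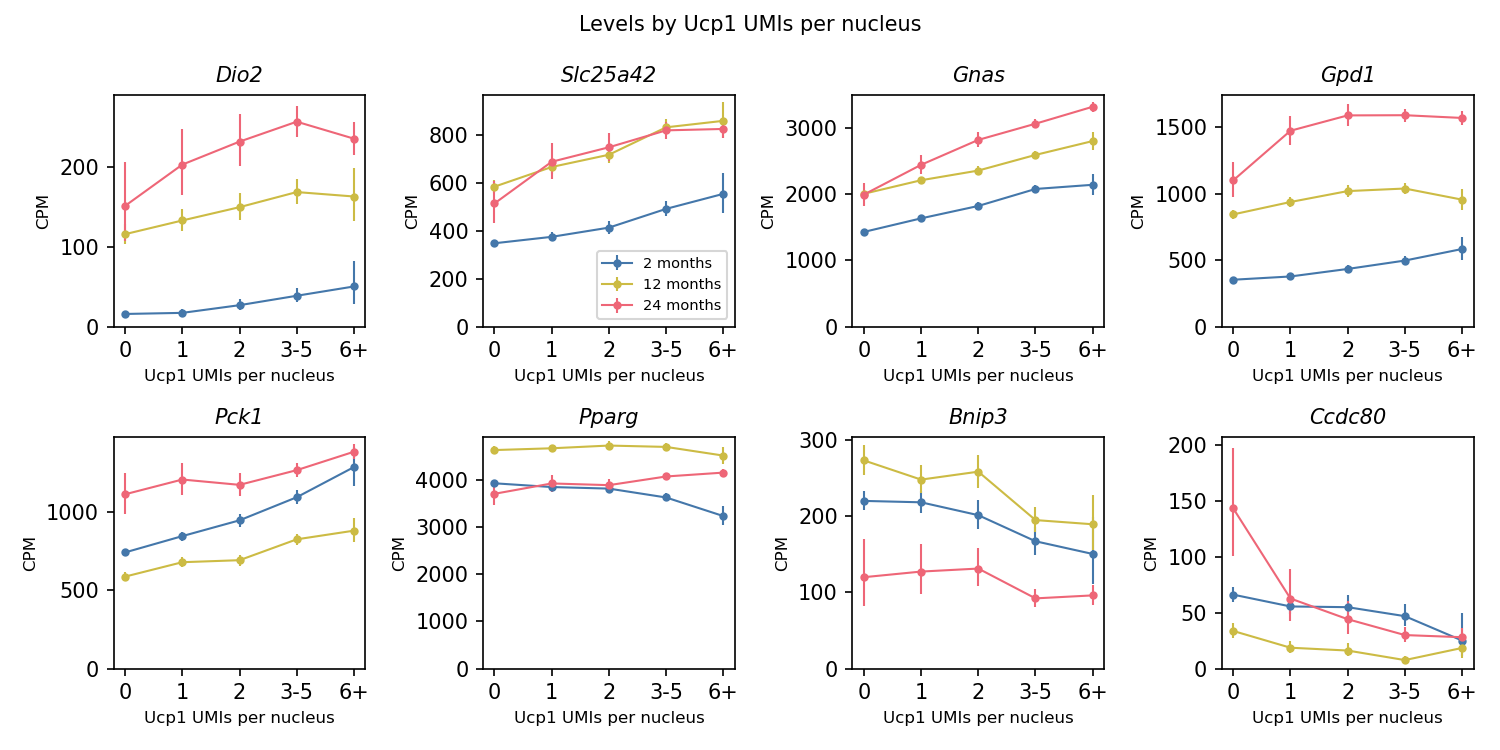
Levels (CPM, with exact Poisson 95% counting intervals) of 8 genes by the number of Ucp1 UMIs per nucleus in each library. Gnas went from 1429 to 2141 CPM at 2 months and from 1993 to 3320 CPM at 24 months, while Bnip3 went from 220 to 150 CPM at 2 months.

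White adipocyte markers held a small group of nuclei that stood apart. Of 18 listed, 4 were compared, with 2 higher in all 3 libraries and 0 lower, beside 16.0% and 15.7% of all compared genes. *Nnat*, an imprinted gene of membrane calcium handling, was at 29.5, 37.6 and 793 CPM without *Ucp1* and 27.7, 33.3 and 26.0 CPM with it. At 24 months 192 of its 205 UMIs came from 13 of 100 nuclei with 5 or more *Nnat* UMIs each, a threshold chosen after the values were seen. Such nuclei made up 13% of those without *Ucp1* (exact interval 7.11 to 21.2) and 9 of 475 with 1 or 2 *Ucp1* UMIs. Among those with 3 or more they were 0 of 1562, for which the exact interval reaches 0.236%. At 2 months they numbered 3 of 2147 without *Ucp1*, 2 of 2249 with 1 or 2 *Ucp1* UMIs and 0 of 776 with 3 or more. At 12 months they numbered 4 of 995, 3 of 1728 and 0 of 1092 in the same groups. The 13 nuclei were adipocytes by their markers, with 41 to 131 adipocyte marker UMIs (median 81) and at most 8 UMIs of the other classes. *Slc7a10*, an amino acid transporter known as a white adipocyte surface marker, was found in 11 of the 13, at 725 CPM against 8.37 CPM in the nuclei with *Ucp1*. *Plin4*, a lipid droplet protein, was at 1618 against 311 CPM, *Tshr*, the thyrotropin receptor, at 976 against 81.0 CPM, and *Pparg* at 4351 against 4109 CPM. *Gnas* was at 948 against 3181 CPM. The other nuclei without *Ucp1* at 24 months had *Slc7a10* at 31.5, *Plin4* at 499, *Tshr* at 157, *Pparg* at 3600 and *Gnas* at 2162 CPM. Except for *Pparg*, these levels lay between those of the 13 nuclei and those of the nuclei with *Ucp1*.

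*Slc7a10* fell under the level filter but was higher without *Ucp1* in each library, with 44, 71 and 33 UMIs without and 5, 38 and 40 UMIs with *Ucp1*. The ratio was 3.42 (counting interval 1.36 to 11.0), 2.25 (1.49 to 3.42) and 15.3 (9.32 to 24.8). Nuclei with 5 or more *Nnat* UMIs also occurred at other depths of the 24-month library, in 2 of 161 nuclei without and 0 of 299 with *Ucp1* at 1000 to 1999 UMIs, and in 4 of 18 without and 5 of 2265 with *Ucp1* at 4001 to 8000 UMIs. In the 12-month library they numbered 2 of 515 without and 0 of 149 with *Ucp1* at the lower depth, and 5 of 363 and 2 of 1986 at the higher depth. When these nuclei were left out of the main comparison, 10 of the 12 genes stayed higher by 1.5 times or more in all 3 libraries, and *Slit3* and *Ccdc80* did not, with 0.57 and 0.58 at 2 months on the log2 scale. *Nnat*, whose own count chose these nuclei, then had log2 ratios of -0.17, -0.19 and 1.17 and no longer kept one direction. *Ccdc80*, the other white adipocyte list gene higher in all 3 libraries, had 0.58, 1.78 and 1.83.

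In the promoter windows, 8 of the 12 higher genes matched, of which 6 held GGGCGG and 0 held any of the other 3 motifs, and 69.6% of the 4251 matched compared genes held GGGCGG. Of 13 matched genes among the 15 leading lower ones, TGACGTCA was found in *Dio2* and AGGTCA in *Hmgcs1*, and 8 held GGGCGG. Over genes lower in all 3 libraries, TGACGTCA was present in 2.90% of 690 promoters, beside 2.04% of 686 for those higher in all 3 and 3.34% of all compared genes. AGGTCA was present in 15.7%, 10.5% and 12.96% of these. A match describes the letters only.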

How the data were processed

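Nuclei of brown adipose tissue were freed by Dounce homogenisation, sorted and sequenced with the 10x Genomics 3′ chemistry. The authors aligned the reads to mm10 and counted UMIs with Cell Ranger (7.0.1 per the labels), forcing 10000 barcodes per library, and the deposited matrices hold raw UMI counts, with totals of 28977002, 45819738 and 37135296 at 2, 12 and 24 months. The counting of intronic reads is not described in the sources used here. Barcode sequences shared by a pair of libraries numbered 20 to 28. At 24 months 31.45% of barcodes held fewer than 1000 UMIs. The study's own filter kept barcodes of at most 2000 UMIs, to remove multiples, and was not applied here, so that nearly all nuclei of the 2000 to 4000 UMI window lie above its limit. No doublet caller was run.

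UMI sums per library and group were scaled to CPM without *Ucp1*, for 5331 genes of at least 20 CPM. Ratios carry exact 95% counting intervals. Held-out nuclei were tested with edgeR 4.0.16 (TMM, filterByExpr, library as a block, R 4.3.3), with DESeq2 1.42.0 as an alternative, and adjusted p under 0.05 counted as passing. Both sums of a pair come from 1 library, so the block pairs them by design. On simulated counts the held-out test over 5736 genes found 52 of 100 genes changed by 1 log2 unit and 99 of 100 changed by 2, with 8 unchanged genes called. p-values measure the spread between the libraries, which differ in age. Genes were named if they were members of the lists or markers, or among the 15 called genes in each direction with the largest minimum of the 3 absolute log2 ratios, without predicted and ribosomal genes. As no gene was called lower, the leading lower genes were ranked by the same measure after their values were seen, and the other-class nuclei and the counting-interval counts were also added after seeing the data. The nuclei, the 21 gene lists and the markers were chosen with earlier results of these data known. Promoter sequences are from RefSeq (GRCm38.p6).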

Additional observations from a re-analysis of the deposited data

Results flagged for a closer look

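A few genes had opposite directions in different libraries, and the difference between libraries was not tested, as each age had 1 library. The log2 ratio of *Cidea* without over with *Ucp1* was -0.26 at 2 months, 0.14 at 12 months and -0.47 at 24 months, a difference of 0.40 from 2 to 12 months and of -0.61 from 12 to 24 months. *Ppargc1a* went from 0.22 at 12 months to -0.28 at 24 months, a difference of -0.50. *Fasn* was at -0.15, 0.48 and -0.37, with differences of 0.63 and -0.86 between successive ages, and *Acly*, ATP citrate lyase, went from 0.34 at 12 months to -0.45 at 24 months, a difference of -0.79. *Pparg* went from 0.14 at 2 months to -0.15 at 24 months, a difference of -0.29, and *Txnip*, a thioredoxin-binding protein, from 0.38 to -0.35, a difference of -0.73.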

How the results depend on the processing

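Thinning to 2000 UMIs moved the share without *Ucp1* to 50.1%, 36.7% and 9.59%, and a window of 2500 to 3500 UMIs gave 3.47% at 24 months. The 12 genes higher by 1.5 times in all 3 libraries became 0 with 0 exclusion-gene UMIs, 1 without other-class nuclei, 7 after thinning, 3 against nuclei with at least 1 *Ucp1* UMI, 3 at 50 CPM or more and 27 at 10 CPM or more, and 12 to 71 when 1 library was left out (71 without 2 months, 24 without 12 months). Genes higher by any size became 466 at 50 CPM or more, 499 with median-of-ratios factors and 1501 to 1617 with 1 library left out, and lower by any size 558 at 50 CPM or more and 1424 to 1589 with 1 library left out. Genes lower by 1.5 times became 1 in the window of 2500 to 3500 UMIs (*Aldh4a1*), 2 against 5 or more *Ucp1* UMIs (*Dio2* and *Slc25a48*), 1 at 10 CPM or more (*Rpl32*), 1 with median-of-ratios factors (*Dio2*) and 2 to 13 with 1 library left out. In the held-out nuclei, 123 genes rose and 9 fell, against 33 and 2 with DESeq2, 257 and 0 with no filter, 9 and 2 without other-class nuclei, and 3 that fell among nuclei with at least 5 adipocyte marker UMIs. With no replicate block, edgeR called 0 in either direction (84 at an unadjusted p under 0.05). Leaving out 1 library gave 33 to 137 that rose and 3 to 13 that fell, the 33 without 24 months. The mean log2 ratio of *Lama2* reversed to -0.12 without other-class nuclei, which its own UMIs help to define. Over all values of 62 named genes under the alternative settings, this reversal included, 835 of 868 in the main window and 532 of 553 in the held-out nuclei kept their sign. Where no cause is given, the cause was not tested. The 100 nuclei without *Ucp1* at 24 months, with 258357 UMIs in sum, limit the precision of every value that needs all 3 libraries.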

Other observations

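Several genes below the level filter had counting intervals above 1 in all 3 libraries. *Slc7a11*, the cystine transporter, had 32, 46 and 12 UMIs without *Ucp1* and 4, 24 and 69 with it at 2, 12 and 24 months. *Elovl3*, a fatty acid elongase induced by cold in brown fat, also fell under the filter, with 24, 67 and 5 UMIs without and 24, 117 and 216 with *Ucp1*, and ratios of 0.388, 0.689 and 0.428. Its counting interval reached above 1 at 24 months (0.136 to 1.01). *Gdf15*, a stress-induced hormone, had 21 UMIs in 11 nuclei without and 5 UMIs in 5 nuclei with *Ucp1* at 12 months, and 0 to 3 UMIs in the groups of the other libraries.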
